A study of Mus musculus with 3 samples.

Results

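Classical cadherins are calcium-dependent adhesion proteins that span the membrane, bind like cadherins on the next cell, and hold catenins on their cytoplasmic tails. Signals were examined for 10 genes of this adhesion system in ureteric duct cells of the mouse embryo, 8 cadherins (Cdh1, Cdh2, Cdh3, Cdh4, Cdh6, Cdh11, Cdh16 and Cdh17) and 2 catenins (Ctnna1 and Ctnnd1), out of 19938 genes with a probe set of their own. The genes were chosen by name, as the epithelial, mesenchymal and kidney-type cadherins and their tail-binding partners. Each of the 10 had 1 probe set that names it alone. The study comprised 3 arrays of a single group. Embryos at 10.5 dpc (Theiler stage 18), of the CD-1 strain and of unknown sex, carried the transgene Tg(Hoxb7-EGFP)33Cos, in which the Hoxb7 promoter drives green fluorescent protein in the nephric duct and its branches. Each sample was 1 ureteric duct, freed by microdissection and trypsin and sorted for fluorescence, with the tissue labelled as ureteric trunk. Its RNA was amplified with a kit for very small inputs and hybridised to 1 array. There was no untreated or GFP-negative group, so nothing here compares conditions, and nothing in the labels ties the samples to separate embryos.

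In epithelia, beta-catenin binds the far end of the cadherin tail and alpha-catenin links that complex to actin, while Ctnnd1 protein binds the tail beside the membrane and slows endocytosis of the cadherin. E-cadherin is the standard cadherin of ducts and tubules, N-cadherin is typical of mesenchyme, neural tissue and some nephron segments, and Cdh16, the kidney-specific cadherin, marks tubule and duct epithelium with a short tail that lacks the catenin-binding region.

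Values were taken to be log2 signals, on which scale a difference of 1 is a doubling of signal. Background was read from 1212 probe sets of olfactory and vomeronasal receptor genes, whose best known site is the sensory neurons of the nose. Their 95th percentile, the cutoff, was 5.69, 5.73 and 5.70 on arrays 1, 2 and 3, and their 99th percentile averaged 6.38. A gene passes, or lies above background, where limma's one-sided test of its value against the cutoff, n = 3, gave a Benjamini-Hochberg adjusted p under 0.05 over all 21789 single-gene probe sets. Signals of different probe sets do not rank transcript amounts, so genes were tested only against background. Where a list is described by its highest and lowest genes, this refers to probe set signals alone.

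Of the 10 genes, 8 lay above background, 6 of the 8 cadherins and both catenins, where 56.2% of all genes did. At the 99th percentile the count was 6, against 36.1% of all genes. A cutoff 1 log2 unit higher left 5, against 28.4% of all genes. The 5 that passed at each height were Cdh1, Cdh3, Cdh16, Ctnna1 and Ctnnd1. Median distance from the cutoff was 1.26 log2 units over the 10 genes and 0.33 over all genes. On these arrays 50.8% of genes had identical values on every array, and 5 of the 10 did so, namely Cdh1, Cdh3, Cdh4, Cdh11 and Ctnna1. Such a gene shows no spread of its own, and its p rests on the differences between the 3 cutoffs and on moderation. With the spread of tied genes taken from untied ones, p was larger for Cdh4 (limma, adjusted p = 0.000336) and Cdh11 (0.00183) and smaller for Cdh1, Cdh3 and Ctnna1, and all 5 still passed. Cdh2, Cdh17 and Ctnnd1 were tied on 2 arrays, and Cdh6 and Cdh16 on none.

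**Figure D1:**
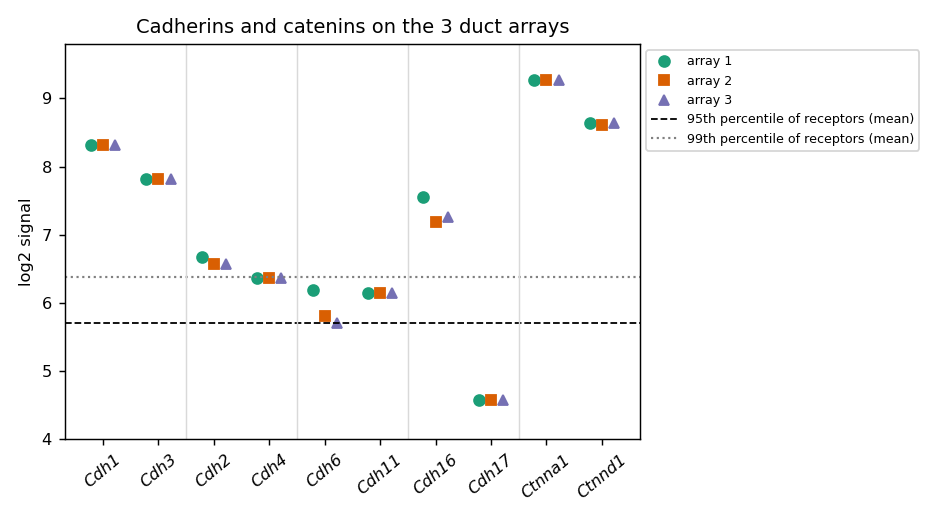
Log2 signal (vertical axis) of the 8 cadherin and 2 catenin genes (horizontal axis, grouped by role) on arrays 1, 2 and 3, with each point 1 array. The dashed and dotted lines are the 95th and 99th percentiles of receptor probe sets, averaged over arrays at 5.71 and 6.38. Cdh6 straddles the space just above the dashed line, between 5.71 and 6.19, and Cdh17 lies below it on every array.

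Cdh1 and Cdh3 passed at each cutoff height. Cdh1, which encodes E-cadherin, read 8.32 on each array. It lay 2.61 log2 units above the cutoff (moderated SE 0.015; limma, Benjamini-Hochberg adjusted p = 2.75e-06). At most 1 of the 1212 receptor probe sets reached its value on any array. Cdh3, which encodes the placental-type cadherin found in many early epithelia, read 7.82 on each array. Its distance was 2.11 log2 units (limma, adjusted p = 3.72e-06), again with 1 receptor probe set at or above it. The genes are neighbours: by the gene order of GRCm38.p6, 0 protein-coding genes lie between Cdh3 and Cdh1. Neither gene's values were held by any other probe set on all 3 arrays together. On single arrays the Cdh1 value was held by 3 to 5 probe sets, its own included, and that of Cdh3 by 1.

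Ctnna1, the alpha-catenin of epithelia, read 9.27 on each array, 3.56 log2 units above the cutoff (limma, adjusted p = 2.14e-06). Ctnnd1 read 8.64, 8.61 and 8.64, a mean of 8.63 ± 0.02 (SD, n = 3) and 2.92 log2 units above it (limma, adjusted p = 3.51e-06). The lowest array thus differed from the others by 0.03 log2 units. For both catenins, 0 of 1212 receptor probe sets reached the signal on any array. These genes stayed above the cutoff raised by 1 log2 unit, by 2.56 for Ctnna1 and 1.92 for Ctnnd1.

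The single Ctnnd1 probe set gives 1 value for a gene with more than one start site. RefSeq windows for 2 starts were at hand (GRCm38.p6, minus strand). They are shown with the window of Cdh6, the gene nearest its cutoff. These were the members with a window in the search, which left out 1 chromosome for the members. The figures for all windows kept that chromosome. Whether members on that chromosome have a window was not examined. Each run is the 250 bases before the start, 5′ to 3′, with every CpG in capitals.
Ctnnd1, outer start, chr2:84658978-84659227: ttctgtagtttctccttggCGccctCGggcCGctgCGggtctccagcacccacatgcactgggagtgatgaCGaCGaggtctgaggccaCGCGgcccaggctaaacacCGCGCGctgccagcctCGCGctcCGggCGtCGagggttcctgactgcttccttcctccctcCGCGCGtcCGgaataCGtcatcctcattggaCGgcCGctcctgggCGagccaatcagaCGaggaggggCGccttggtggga
Ctnnd1, inner start, chr2:84650741-84650990: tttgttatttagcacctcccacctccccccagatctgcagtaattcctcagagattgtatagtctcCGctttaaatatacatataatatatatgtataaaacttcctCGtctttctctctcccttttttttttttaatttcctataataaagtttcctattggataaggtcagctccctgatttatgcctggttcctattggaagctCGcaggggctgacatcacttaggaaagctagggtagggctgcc
Cdh6, chr15:13173676-13173925: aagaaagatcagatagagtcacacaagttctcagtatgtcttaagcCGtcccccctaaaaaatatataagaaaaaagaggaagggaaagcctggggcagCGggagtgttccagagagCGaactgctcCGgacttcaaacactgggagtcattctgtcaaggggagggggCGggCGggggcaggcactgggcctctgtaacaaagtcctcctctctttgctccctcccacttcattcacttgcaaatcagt
The outer Ctnnd1 window held 26 CpG and the inner one 3, and 90.4% and 29.0% of all 32851 windows held fewer. Cdh6 held 6 CpG, the median of all windows. The sites CACCTG and CAGGTG, which are each other's reverse complement and are bound by Snail and Zeb repressors, were searched on both strands. They occurred 0 times in each of these windows and in 17.2% of all windows, which says only that these letters are not in the stretches shown. How the Ctnnd1 signal divides between the starts was not tested.

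Cdh2 and Cdh4 passed within 1 log2 unit of the cutoff. Cdh2, which encodes N-cadherin, read 6.67 on array 1 and 6.57 on arrays 2 and 3. Its mean of 6.60 ± 0.06 (SD, n = 3) was 0.90 log2 units above the cutoff (limma, adjusted p = 0.000149) and 0.23 above the 99th percentile, where it still passed. Between 7 and 10 receptor probe sets reached its value on an array. Cdh4, which encodes R-cadherin, known from retina and early kidney epithelium, read 6.36 on each array, 0.65 log2 units above the cutoff (limma, adjusted p = 3.98e-05). It lay 0.02 below the mean 99th percentile and did not pass there, and 11 to 13 receptor probe sets reached it. Neither Cdh2 nor Cdh4 passed with the cutoff raised by 1 log2 unit.

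Cdh11, a type II cadherin of mesenchyme and bone-forming cells, read 6.14 on each array. It lay 0.43 log2 units above the cutoff (limma, adjusted p = 0.000107) and 0.24 below the 99th percentile. Between 22 and 24 receptor probe sets reached this signal. Unlike those of the other 9 genes, the values of Cdh11 over all 3 arrays together were not its own. Exactly 6.14124 was held on all 3 arrays by 51 probe sets, 41 of them single-gene probe sets. Over all probe sets, 221 such sets of values were each held by 10 or more probe sets, covering 22.9% of probe sets. Whether this signal is specific to Cdh11 was not tested. A further 3 probe sets list Cdh11 together with 6820431F20Rik and 2610005L07Rik and read 9.06 to 11.03 on average, and no gene was named from them.

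Cdh6, a type II cadherin known from early nephrons, did not pass. Its signal was 6.19, 5.80 and 5.71 on arrays 1, 2 and 3. The mean of 5.90 ± 0.25 (SD, n = 3) was 0.19 log2 units above the cutoff (limma, adjusted p = 0.18). Array 1 lay 0.49 above its cutoff, array 2 0.07 and array 3 0.01, so all 3 were above in value but only by small steps on arrays 2 and 3. On these arrays 20, 54 and 61 receptor probe sets reached the signal of Cdh6. Without array 3 it passed (limma, adjusted p = 0.0369), but that fit gave every gene one common spread. It also passed with the 90th percentile as the cutoff (limma, adjusted p = 0.0231) and not without array 1 (0.308) or without array 2 (0.236).

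Of the cadherins with short tails, Cdh16 passed and Cdh17 did not. Cdh16 had signals of 7.56, 7.19 and 7.26 on arrays 1, 2 and 3, a mean of 7.33 ± 0.20 (SD, n = 3). It lay 1.63 log2 units above the cutoff (moderated SE 0.099; limma, adjusted p = 0.000483), and all arrays were at least 1.46 above their own cutoffs. Between 1 and 3 receptor probe sets reached it. Cdh17, the liver-intestine cadherin, read 4.57 on each array to 2 decimals. Its distance from the cutoff was -1.14 log2 units, and 379 to 385 receptor probe sets reached it. Cdx2, an activator of Cdh17 in intestine, read 5.26 on each array and also did not pass.

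**Figure D2:**
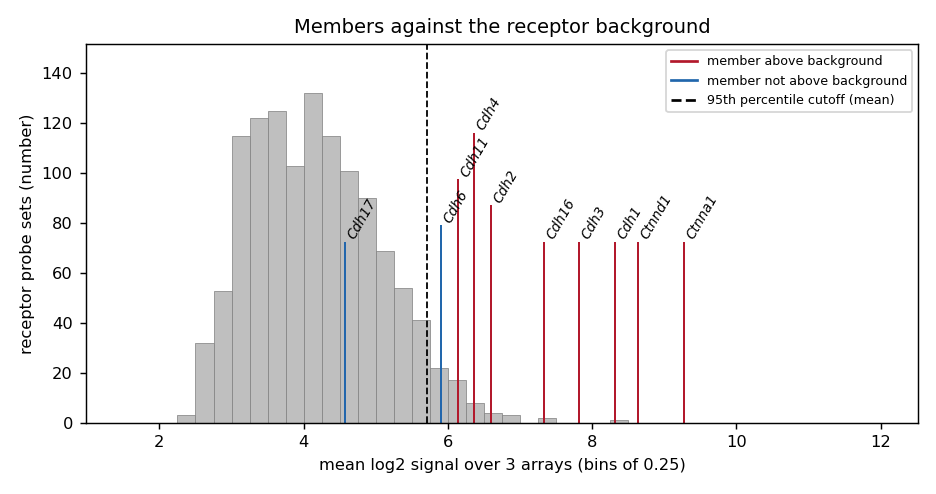
Number of receptor probe sets (bars, vertical axis) by mean log2 signal over the 3 arrays (horizontal axis, bins of 0.25). Coloured lines mark each gene's mean and their height has no meaning. Cdh17 falls inside the main body of the receptors, Cdh6, Cdh11, Cdh4 and Cdh2 among their upper tail between 5.90 and 6.60, and Ctnnd1 and Ctnna1 beyond every receptor probe set.

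Of the members not tied on all arrays, Cdh6 was 0.43 and Cdh16 0.34 log2 units higher on array 1 than on the mean of the other arrays. For Cdh2 this difference was 0.10 and for Ctnnd1 0.01, and Cdh17 was not higher on array 1. The range was 0.47 for Cdh6 and 0.37 for Cdh16. Among genes not tied on all arrays the median SD was 0.11, and 77.1% and 69.6% of them had a smaller SD than Cdh6 and Cdh16. All genes together did not differ in this way, with medians of 6.04, 6.04 and 6.02 on arrays 1, 2 and 3. Of genes with 3 different values, 34.3% were highest on array 1.

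Markers of other cells differed between the same arrays. Their counts stand beside 56.2% of all genes passing, and 36.1% at the 99th percentile. All 10 duct epithelial markers passed, among them Epcam and Gata3, and their mean was 8.75, 8.58 and 8.64 on arrays 1, 2 and 3. Of 12 endothelial markers 11 passed, and 11 were lowest on array 2, with means of 7.83, 7.18 and 7.86. The mean of 6 red cell genes was 6.84 on array 1 and 5.24 on each of the others, with 1 of the 6 passing. The globin genes Hbb-y, Hba-x and Hbb-bh1 carry that difference, with 10.02, 8.89 and 6.41 on array 1, while Alas2 and Rhag read one value on all arrays and Gata1 was highest on array 3. Of 14 mesenchyme and stroma markers 4 passed (Cited1, Foxc2, Col1a1 and Col3a1), with means of 5.44, 5.41 and 5.40, with Cited1 2.00 and Foxc2 2.13 log2 units above the cutoff, while Six2, Osr1, Foxd1 and Meox1 among others were below it. Of 6 neural markers 2 passed (Sox10 and Erbb3), of 7 macrophage markers 1 (Cx3cr1), and of 5 coelomic and gonad markers 4, all but Lhx9. At the 99th percentile these counts were 10 for duct, 10 for endothelium, 3 for mesenchyme, 0 for red cells, 1 for neural genes, 1 for macrophages and 0 for coelomic and gonad genes. The part of these cells in the signals of the 10 cadherin and catenin genes was not tested. In such RNA, fewer cells of a type and less transcript per cell cannot be told apart. The vascular cadherin gene Cdh5, one of the 12 endothelial markers, read 9.31, 8.44 and 9.54, lowest on array 2. Among the members, Cdh2, Cdh6 and Cdh16 were highest on array 1. Cdh16 and, by 0.03 log2 units, Ctnnd1 were lowest on array 2. The 5 members tied on all arrays can show no such pattern.

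**Figure D3:**
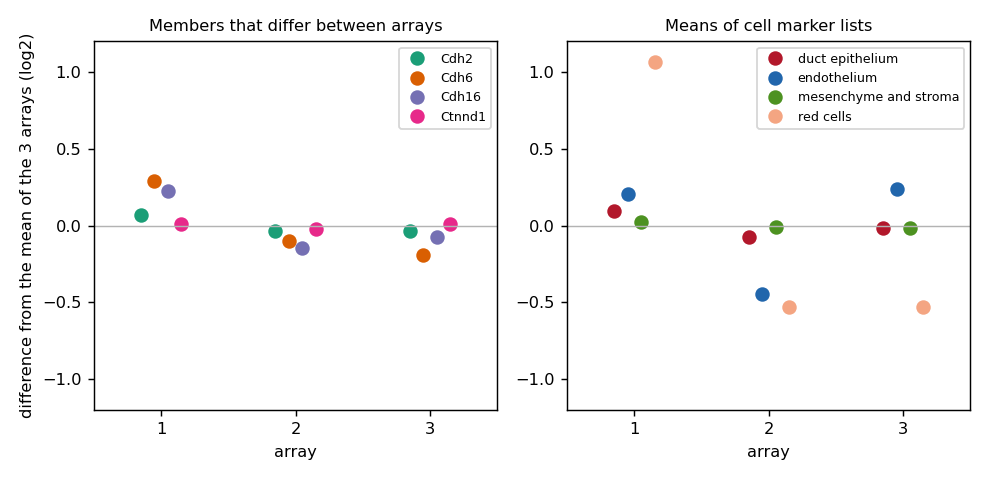
Difference of each array from the mean of the 3 arrays (vertical axis, log2 units) for the members whose values differ by 0.03 or more (left) and for the means of 4 marker lists (right), with each point 1 array. Cdh6 and Cdh16 are highest on array 1, as are the red cell, duct epithelial and mesenchyme means, the last by a small step. Of the 10 duct markers 3 are highest on array 1 and 4 lowest on array 2, and their median is 8.38 on every array. The endothelial and duct epithelial means are lowest on array 2.

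Further members of the cadherin family were measured as a list. Of 15 further cadherins 5 passed (33.3%, against 56.2% of all genes). At the 99th percentile 2 passed, Cdh5 and Cdh24, where 36.1% of all genes did. Cdh5 averaged 9.10 ± 0.58, Cdh24 6.75 and Cdh22 6.04. Cdh26 at 5.98 and Cdh13 at 5.87, named after their values were seen, also passed. Without array 3 the fit with one common spread called 3 of the 15. The lowest were Cdh9 at 3.18 and the Schwann-lineage cadherin Cdh19 at 3.12 ± 0.06. Of 12 unclustered protocadherins, relatives that do not use classical catenins, 6 passed, and 3 at the 99th percentile. The highest were Pcdh19 at 7.96 ± 0.02, Pcdh7 at 7.56 ± 0.06 and Pcdh17 at 7.04 ± 0.25, and the lowest Pcdh20 at 4.26 and Pcdh11x at 4.74. Listed genes given without an SD read one value on all 3 arrays. The median distance from the cutoff was -0.64 over the 15 cadherins and 0.03 over the protocadherins, beside 0.33 over all genes.

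Catenin relatives passed in 6 of 8 cases (75.0%, against 56.2% of all genes). Ctnnb1, beta-catenin, read 9.60 ± 0.06, and Jup, plakoglobin, which can replace it at junctions and also serves desmosomes, 7.37 ± 0.16. Ctnnal1, an alpha-catenin-like gene, read 8.25. The armadillo relatives of Ctnnd1 were Pkp4 at 7.24 ± 0.03, Arvcf at 6.70 and Ctnnd2 at 6.28 ± 0.06, the last below the 99th percentile. The alpha-catenins of nervous tissue and of heart and testis, Ctnna2 at 4.82 and Ctnna3 at 4.18, did not pass, in contrast to Ctnna1. Nectins, immunoglobulin-type adhesion receptors of the same junction, and their actin adaptor afadin passed in 5 of 5 cases (100%, against 56.2% of all genes). Nectin3 read 8.40 ± 0.10, Nectin2 6.76 ± 0.12, Nectin4 6.43 ± 0.16, Nectin1 6.32 ± 0.04 and Afdn 8.66. At the 99th percentile Nectin2, Nectin3 and Afdn passed, where 36.1% of all genes did.

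Genes linking the junction to actin and microtubules numbered 12 above background out of 13 (92.3%, against 56.2% of all genes). With the spread of tied genes taken from untied ones, 10 of the 13 passed, and 10767 of all 19938 genes. With olfactory receptors alone as background, 10 of the 13 passed, and 10752 of all genes. At the 99th percentile 7 passed, where 36.1% of all genes did. Tjp1, the scaffold protein ZO-1's gene, read 9.86 ± 0.08, the actin crosslinker gene Actn4 8.98 ± 0.42 and the LIM-domain adaptor gene Wtip 8.30 ± 0.06. Actn4 was lowest on array 2, at 8.55, and highest on array 3, at 9.38. Vezt at 5.78 and Plekha7 at 5.76 passed by 0.07 and 0.05 log2 units. Each read the same value on every array, so its p rests on the differences between the cutoffs and on moderation. Limd1 at 5.84 ± 0.14, above the cutoff by 0.14 log2 units, did not pass (limma, adjusted p = 0.0792). Genes of cadherin turnover and processing were above background for 9 of the 9 measured (100%, against 56.2% of all genes). Of these 8 passed the 99th percentile, against 36.1% of all genes. Adam10, the protease that sheds the E-cadherin ectodomain, read 8.45 ± 0.03, the endocytic adaptor gene Numb 8.06 ± 0.36 and the receptor phosphatase gene Ptprf 7.57 ± 0.12. At the low end were Src at 6.78 and Ctnnbip1, an inhibitor of beta-catenin, at 6.46.

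Regulators of cadherin genes were measured on both sides. Transcriptional repressors of Cdh1 numbered 5 above background out of 8 (62.5%, near the 56.2% of all genes). At the 99th percentile 3 passed, where 36.1% of all genes did. Tcf3 read 7.26 ± 0.19, Snai1 6.58, Snai2 6.53 ± 0.06, Zeb1 6.46 ± 0.16 and Twist1 5.96, while Zeb2 at 5.79 ± 0.14, Twist2 at 5.21 ± 0.01 and Klf8 at 4.42 did not pass. Epithelial and duct regulators were above background for 7 of the 8 measured (87.5%, against 56.2% of all genes). Of these 4 passed the 99th percentile, against 36.1% of all genes. Pax2 read 8.79 ± 0.03, Tfap2a 8.22, Grhl2, an activator of Cdh1, 7.40 ± 0.24, Pax8 7.01, Ovol2 6.42 ± 0.06, Elf3 6.01 ± 0.01 and Ovol1 5.81, with Cdx2 below the cutoff. Beside Cdh11, among the genes named as passing, 10 or more probe sets held the values of Ovol1 (70), Cdh22 (65), Col3a1 (61), Cx3cr1 (33), Twist1 (25), Src (22) and Snai1 (16). So it was for Wt1 (65), a coelomic marker that passed. Among genes named as low or not passing, it held for Six2 (124), Cdx2 (112), Ctnna3 (107), Alas2 (85) and Osr1 (80). It also held for Cdh9 (78), Pcdh20 (78), Pcdh11x (75), Klf8 (50), Foxd1 (31) and Lhx9 (14). The specificity of all these signals was not tested. Grhl2 was lowest on array 1, at 7.13 against 7.54 on the others. Over the 8 lists 55 of 78 genes passed (70.5%, against 56.2% of all genes), and 35 at the 99th percentile, where 36.1% of all genes did. With the spread of tied genes taken from untied ones, 51 of the 78 passed, and 10767 of all 19938 genes.

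**Figure D4:**
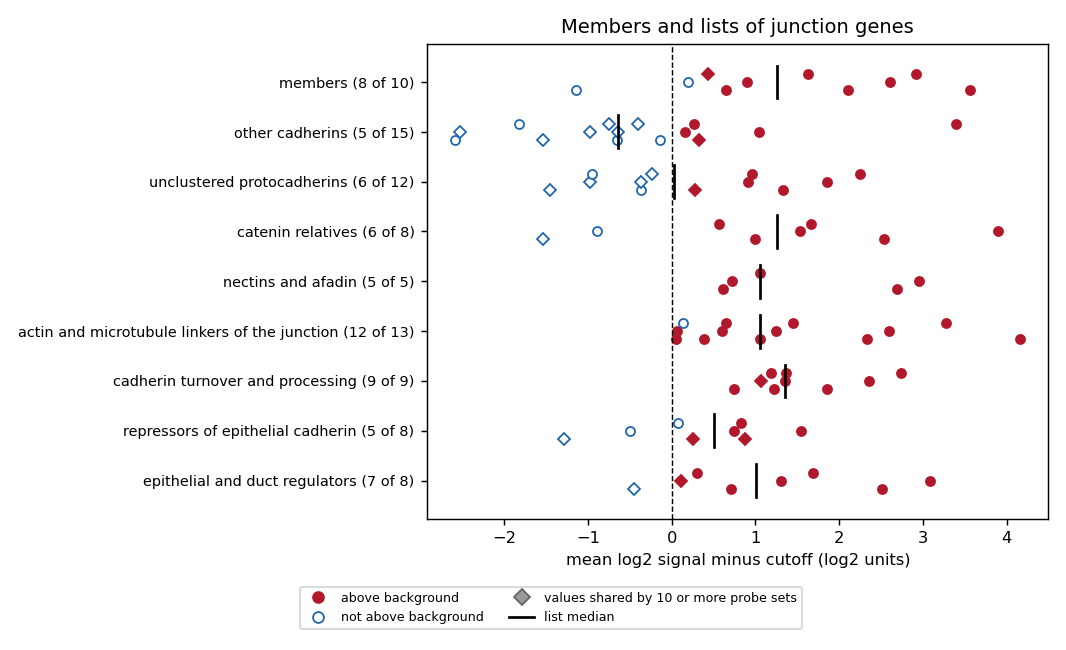
Mean log2 signal minus the cutoff (horizontal axis) for the 10 genes and for 8 lists of related genes (vertical axis, with genes above background of those measured), each point 1 gene, filled where it passed. Vertical bars are list medians and diamonds are genes whose values 10 or more probe sets share. The 10 genes have a median of 1.26 and the 15 further cadherins one of -0.64, and Cdh11 is the diamond among the 10.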

How the data were processed

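The submitters' processing notes name Affymetrix Expression Console. The authors deposited 1 log2 signal per probe set and array, for 35557 probe sets. The log2 scale was not stated and was inferred from the range, 1.90 to 14.2. Array medians were near-equal, at 5.85 to 5.90, which does not bear on the scale. The sources used here give no summary method, background correction or build, and no scanner file was used. The platform annotation gave 21789 probe sets a single symbol, and the brightest of a gene's probe sets by mean stood for it. Each array's cutoff was subtracted and an intercept fitted with lmFit and eBayes (limma 3.58.1 under R 4.3.3). The test was checked on simulated data without ties between arrays, so the check does not cover tied genes. Samples number 3 in 1 group, which limits the precision. For genes not tied on all arrays, p-values reflect the spread among these samples, possibly a technical one, together with moderation. For genes with identical values on every array, they rest on the differences between the 3 cutoffs and on moderation. The members, lists and tests were chosen with earlier results of these data known. All members are described, of longer lists the 3 highest and 2 lowest genes, of lists of 8 or fewer every gene. Some listed genes are not reported here. Alternatives changed the cutoff, the receptors used, the spread, the moderation, the low-value filter, the centring, the probe set and the arrays left in.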

Additional observations from a re-analysis of the deposited data

Results flagged for a closer look

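Signal appeared in data that the comparisons do not use. The platform annotation gives 3 probe sets to Cdh11, 2610005L07Rik and 6820431F20Rik together. They averaged 11.03, 10.32 and 9.06 log2 units, and lay 5.32, 4.61 and 3.35 above the cutoff, with 0 receptor probe sets at or above any of them. The single-gene Cdh11 probe set read 6.14, and probe sets differ in affinity. A probe set naming 2610005L07Rik alone read 8.24 on each array. Which of the 3 genes gives the shared signal was not tested, and no other of the 10 cadherin and catenin genes appeared in a probe set with several genes.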

How the results depend on the processing

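With the cutoff raised by 1 log2 unit, 5 of the 10 genes, 25 of the 78 list genes and 5653 of all genes passed. At the 99th percentile 35 list genes and 7190 of all genes passed. Differences from the cutoff turned negative for Cdh4 (-0.02), Cdh6 (-0.48) and Cdh11 (-0.24) at the 99th percentile, and for Cdh2 (-0.10), Cdh4 (-0.35), Cdh6 (-0.81) and Cdh11 (-0.57) with the raised cutoff, which follows from the height of the cutoff. Cdh6 passed with the 90th percentile (0.50), with a cutoff at the 30th percentile over the whole array (0.92) and without array 3 (0.28). Of 139 combinations of a gene and an alternative, the other 129 kept direction and call. Without any 1 array the count of members was 8 to 9, the 9 without array 3. The further cadherins numbered 3 without array 3, against 5. Centring each array changes nothing by construction, and each member has 1 probe set, so the choice of probe set does not bear on it. With the low-value filter Cdh17 was not tested. No paired analysis was possible because there is a single group.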
